A study of Mus musculus with 24 samples.

Results

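Visceral adipose tissue of mice with partial nephrectomy was compared between animals given NaKtide in their adipocytes and animals given only the reporter, with 6 libraries a side out of the 24 libraries of the series. The 12 libraries were chosen by their sample labels alone. All 4 groups were C57Bl6 mice aged 10 weeks by the description of the series, and the methods of the study describe them as male and fed normal chow. In the 2 groups compared, PNx and PNx+NaKtide, most kidney mass had been removed surgically, and each animal had received a lentivirus by intraperitoneal injection. The virus of the PNx group carried green fluorescent protein (GFP) under the adiponectin promoter, and that of the PNx+NaKtide group carried NaKtide joined to GFP through a 2A peptide under the same promoter, so both groups express GFP and differ in the peptide. The sham-operated groups Control (GFP) and NaKtide received the same 2 viruses. The promoter restricts the transgene to adipocytes, whereas RNA was taken from whole tissue, with 1 library per mouse. Of 54232 genes in the count table, 26116 had more than 10 counts over the 24 libraries and were tested, and 16977 of these were protein-coding.

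The Na,K-ATPase is the ion pump of the plasma membrane. It also holds the tyrosine kinase Src in a complex, and oxidants or cardiotonic steroids that act on the pump release Src activity, which passes through kinase cascades and leads to the formation of further oxidants. NaKtide is a peptide taken from the pump that binds the kinase domain of Src and was designed to block this signalling. White adipocytes store triglyceride, release it by lipolysis and secrete hormones such as adiponectin and leptin. The question of the comparison is which genes differ in the fat of uraemic animals when this signalling is blocked in adipocytes.

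Libraries were shallow, with 1619842 to 2979505 counts in PNx and 1281905 to 1907222 counts in PNx+NaKtide. Levels are given in CPM, which are counts relative to the size of the library after TMM scaling between libraries. The upper limit for a gene without counts, 3 counts, lay between 0.739 and 2.36 CPM in PNx and between 1.66 and 2.50 CPM in PNx+NaKtide, for counting error only. Genes whose exons overlap those of an opposite-strand gene held 70.2% to 83.9% of the counts in these 12 libraries, and as the strand setting of the counting is not given, the values of such genes are uncertain. PNx replicates 1, 2 and 3 and PNx replicate 6 stood apart from the other libraries in different directions, so the values that moved most without them are given both ways. Leaving out PNx replicate 6 turned 24 of the 45 gene lists used from a negative to a positive median fold change between the groups, and without PNx replicates 1, 2 and 3 the median changed sign in 10. The adipocyte list, 18 genes that define the labelled tissue, summed to 263 to 7560.4 CPM (median 322) in PNx and to 182 to 1341 CPM (median 381) in PNx+NaKtide, with none of the 18 at 0 throughout. Genes of neighbouring organs were present as well. The spermatid and sperm list summed to 443 to 2381 CPM (median 1189) in PNx and to 320.5 to 1571 CPM (median 787) in PNx+NaKtide, and the epididymis list to 22.4 to 2016 CPM (median 411) and 836 to 2117 CPM (median 1211). In every one of the 12 libraries except PNx replicate 6, the sum of the sperm list or of the epididymis list was above that of the adipocyte list.

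**Figure D1:**
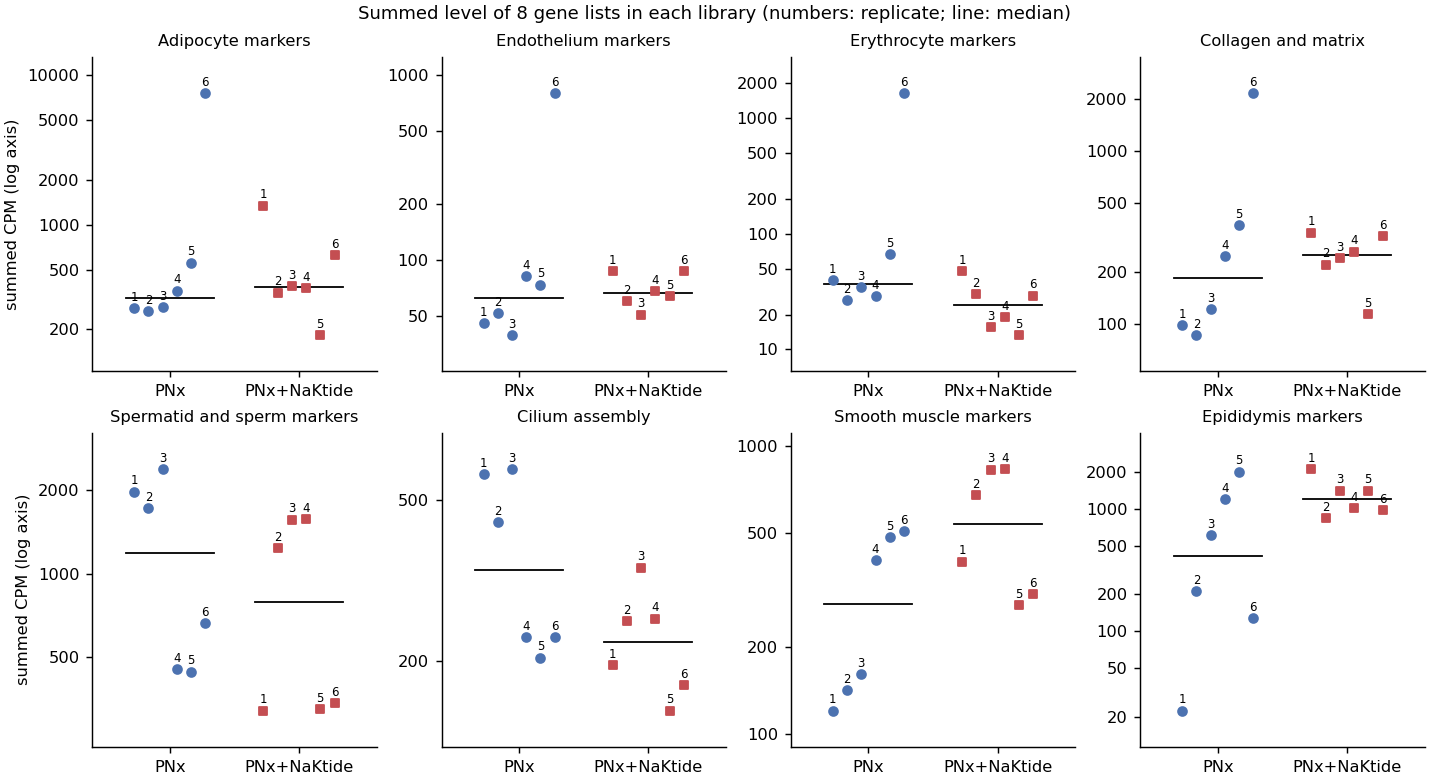
Summed level of 8 gene lists in each library of PNx (circles) and PNx+NaKtide (squares), in CPM on log axes, with replicate numbers beside the points and the median as a line. PNx replicate 6 is far above the others for adipocyte, endothelium, erythrocyte and matrix genes, PNx replicates 1, 2 and 3 are the highest libraries for sperm and cilium genes, and PNx+NaKtide replicates 2, 3 and 4 are the highest for smooth muscle genes.

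No gene passed the test between PNx+NaKtide and PNx. With edgeR's quasi-likelihood test and Benjamini-Hochberg adjustment over 26116 genes, 0 genes had an adjusted p under 0.1 (0% of those tested), and the smallest adjusted p was 0.350. At an unadjusted p under 0.05, 3309 genes (12.7%) differed, of which 1064 (4.07%) were higher in PNx+NaKtide and 2245 (8.60%) were lower. DESeq2 called 1514 genes, 271 higher and 1243 lower. These were 5.80% of the 26116 genes, but DESeq2 gave 10399 of them no adjusted p. Voom with sample weights called 11479 (44.0%), 6272 higher and 5207 lower. Over all genes, the median log2 fold change stood at -0.37. Scaling by DESeq2 size factors moved that median to -0.71 and gave 702 higher and 5861 lower genes at an unadjusted p under 0.05, and scaling by total counts gave 823 and 3925. The excess of lower genes was larger with both, but it shrank to 1826 higher and 1985 lower genes without PNx replicates 1, 2 and 3. Single genes are described below by their level in each library, their fitted log2 fold change with its standard error and their unadjusted p, and none of these p-values holds after adjustment in edgeR.

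The lower genes often shared a pattern among the PNx libraries. In 1237 of the 2245 lower genes (55.1%), PNx replicates 1, 2 and 3 were all above PNx replicates 4, 5 and 6, a pattern of 30.5% of all genes tested. In 234 of the lower genes (10.4%), PNx replicate 6 was at least 5 times every other PNx library, which held for 4.62% of all genes. Without that 5-fold margin, PNx replicate 6 was the highest PNx library in 26.9% of the lower genes and in 29.5% of all genes. On the higher side, 385 of 1064 genes (36.2%) had PNx replicates 1, 2 and 3 below PNx replicates 4, 5 and 6, against 20.5% of all genes. The levels of the genes at an unadjusted p under 0.05 therefore often divided the PNx libraries among themselves. Where the PNx+NaKtide libraries lay against each portion of PNx was not tested across these genes. Genes whose 6 PNx+NaKtide libraries were all above the 6 PNx libraries numbered 93 (0.356% of genes tested), and 26 (0.0996%) had all below. These numbers were 71 and 49 with size factors and 99 and 41 with total counts.

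Among the genes the construct concerns, the target kinase was higher in PNx+NaKtide without passing any threshold. Src (chromosome 2, 157418444 to 157471862, GRCm38) had 1.51 to 10.7 CPM (median 2.92) in PNx and 4.16 to 12.2 CPM (median 6.73) in PNx+NaKtide. The groups overlapped, and the log2 fold change was 0.73 ± 0.46 (unadjusted p = 0.121). Without PNx replicate 6 the value was 0.65, and without PNx replicates 1, 2 and 3 it was 0.13.

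Adipoq (chromosome 16, 23146536 to 23158028) encodes adiponectin, and its promoter drives both transgenes. It had 5.50 to 345 CPM (median 91.8) in PNx and 2.50 to 49.0 CPM (median 33.1) in PNx+NaKtide, a log2 fold change of -2.01 ± 0.80 (unadjusted p = 0.0182). The lowest PNx libraries were replicates 4 and 5 (5.50 and 13.1 CPM) and the lowest PNx+NaKtide libraries replicates 5 and 6 (2.50 and 10.2 CPM). Without PNx replicate 6 the fold change was -1.28, and without PNx replicates 1, 2 and 3 it was -2.09. The transgenes themselves were not analysed here.

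Of the 14 Na,K-ATPase subunit genes tested, 1 was higher and 1 lower at an unadjusted p under 0.05, with a median log2 fold change of -0.56 against -0.37 for all genes. The lower gene was Atp1b3, a beta subunit that brings the pump to the membrane, with 2.36 to 35.6 CPM (median 26.3) in PNx and 4.99 to 11.5 CPM (median 7.78) in PNx+NaKtide. PNx replicates 4 and 5 lay below the PNx+NaKtide median and the other 4 PNx libraries above the highest PNx+NaKtide library, and the log2 fold change was -1.43 ± 0.53 (unadjusted p = 0.0114) and -0.63 without PNx replicates 1, 2 and 3. None of the 10 Src family kinases and their regulators reached an unadjusted p under 0.05, and their median of -0.22 was 0.48 without PNx replicate 6.

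Of 8 genes in the signalling list, which the study chose for PCR in these animals, 2 were lower and none higher, and the median of -0.97 was -0.47 without PNx replicate 6 and -0.36 without PNx replicates 1, 2 and 3. A list chosen on these samples is not independent evidence of its direction. Prkca, the kinase C alpha gene, had 0 to 4.53 CPM (median 2.35) in PNx and 0 to 1.43 CPM (median 0.279) in PNx+NaKtide, close to the limit that a count of 0 allows, and it overlaps Apoh on the opposite strand. Its log2 fold change was -2.10 ± 1.01 (unadjusted p = 0.0478). Chuk, which encodes a kinase that frees NF-kB, had 0.594 to 8.68 CPM (median 1.67) and 0.554 to 1.67 CPM (median 0.800), with a log2 fold change of -1.46 ± 0.71 (unadjusted p = 0.0496) that was -0.74 without PNx replicate 6. Neither gene exceeded the limit of a count of 0 in any PNx+NaKtide library.

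The other members named did not reach an unadjusted p of 0.05. Nos3, the endothelial nitric oxide synthase, had 4.16 to 174 CPM (median 59.2) in PNx and 2.50 to 86.9 CPM (median 34.1) in PNx+NaKtide. Both groups were divided, with PNx replicates 1, 2 and 3 at 174, 149 and 84.0 CPM and PNx+NaKtide replicates 2, 3 and 4 at 86.9, 62.9 and 59.9 CPM. The log2 fold change was -1.01 ± 0.86 (unadjusted p = 0.251) and had the opposite sign, 1.34, without PNx replicates 1, 2 and 3. Nos3 shares exon bases with Gm15587 on the other strand. Cdkn1a, which encodes the cell cycle inhibitor p21, had a log2 fold change of -0.93 ± 0.66 (unadjusted p = 0.169), and -0.20 without PNx replicates 1, 2 and 3. Creb1, a transcription factor activated by cyclic AMP, stood at -0.01 ± 0.42, with 4.15 to 6.53 CPM (median 6.17) in PNx and 2.21 to 7.86 CPM (median 5.98) in PNx+NaKtide. Tlr4, a receptor for bacterial lipopolysaccharide, was at or under the limit of a count of 0 in 11 of the 12 libraries and is given no fold.

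**Figure D2:**
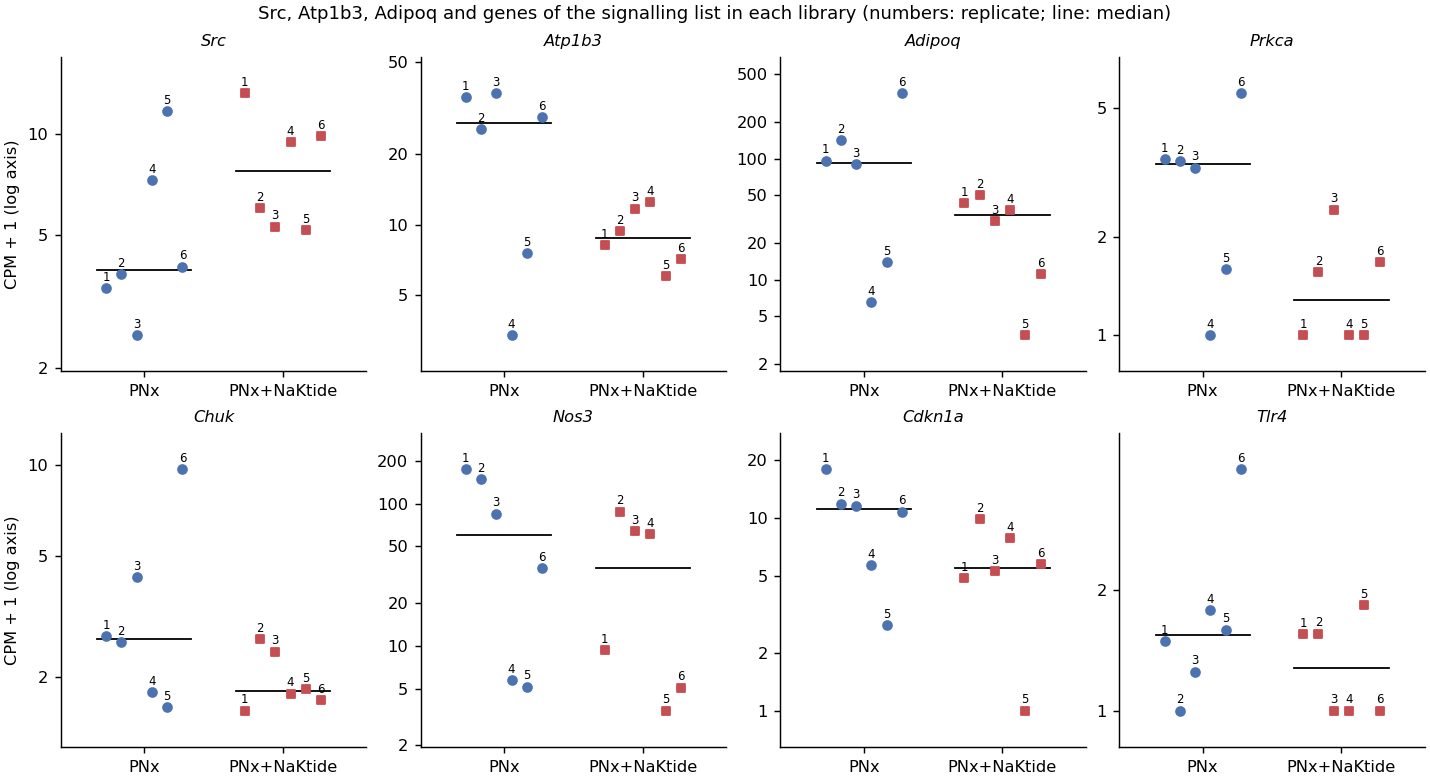
Levels of 8 genes in each library of PNx (circles) and PNx+NaKtide (squares), as CPM + 1 on log axes, with replicate numbers and the median as a line. Src has a higher median in PNx+NaKtide, Atp1b3 and Adipoq have lower ones, and the Nos3 panel shows PNx replicates 1, 2 and 3 and PNx+NaKtide replicates 2, 3 and 4 above the other libraries of their groups.

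The protein-coding genes of smallest unadjusted p on the higher side, among those free of opposite-strand overlap and with a mean of at least 5 CPM, were led by Fads2, a desaturase of polyunsaturated fatty acid synthesis (chromosome 19, 10062765 to 10101746). It had 2.36 to 14.3 CPM (median 6.11) in PNx and 13.3 to 34.3 CPM (median 20.5) in PNx+NaKtide. Only PNx replicate 5, at 14.3 CPM, reached into the PNx+NaKtide range, and the log2 fold change was 1.71 ± 0.43 (unadjusted p = 0.000413, edgeR adjusted p = 0.357). Leaving out PNx replicate 6 gave 1.75, and leaving out PNx replicates 1, 2 and 3 gave 1.45. Obsl1, a cytoskeletal linker protein gene (chromosome 1, 75479310 to 75506452), was the single one of these 12 genes whose groups did not overlap, with 8.30 to 52.9 CPM (median 29.6) in PNx and 64.0 to 172 CPM (median 101) in PNx+NaKtide. Its log2 fold change was 1.74 ± 0.50 (unadjusted p = 0.00176).

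Genes of epithelia were among the others. Sfn, which encodes the 14-3-3 sigma protein of epithelial cells, had 0.404 to 7.13 CPM (median 1.76) in PNx and 4.16 to 21.7 CPM (median 10.5) in PNx+NaKtide, a log2 fold change of 2.19 ± 0.59 (unadjusted p = 0.000842). Sdc1, a cell surface proteoglycan abundant on epithelia, had 0.246 to 16.6 CPM (median 4.72) and 15.6 to 34.3 CPM (median 18.4), a log2 fold change of 1.86 ± 0.54. Without PNx replicates 1, 2 and 3 these values were 1.41 and 1.2. In both genes PNx replicates 4 and 5 were the highest of their group, PNx replicate 5 lay within the PNx+NaKtide range, and PNx replicates 1 and 2 were the lowest. The epididymis list had the same low PNx libraries, with 22.4, 213 and 127 CPM in PNx replicates 1, 2 and 6, against at least 836 CPM in every PNx+NaKtide library, and its part in these genes was not tested.

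Scara3, a scavenger receptor gene linked to the oxidant response, had 0.246 to 28.3 CPM (median 4.09) in PNx and 19.1 to 151 CPM (median 28.4) in PNx+NaKtide. PNx+NaKtide replicate 6 was far above the other 5, and PNx replicate 4 was within the PNx+NaKtide range, with a log2 fold change of 2.42 ± 0.69 (unadjusted p = 0.00151) that fell to 1.66 if PNx+NaKtide replicate 6 was left out and to 1.60 if PNx replicates 1, 2 and 3 were. Ism1, which encodes the secreted protein isthmin, had 0.739 to 21.4 CPM (median 3.87) and 12.1 to 34.9 CPM (median 29.4), a log2 fold change of 1.89 ± 0.56 that was 1.04 without PNx replicates 1, 2 and 3. Prune2 had 3.20 to 43.2 CPM (median 11.6) and 39.1 to 86.2 CPM (median 45.0), a log2 fold change of 1.72 ± 0.48 that was 0.89 without the same 3, which were its 3 lowest libraries. Prrt1, Nucb1 and Pja1 had log2 fold changes of 1.61 ± 0.50, 1.13 ± 0.36 and 1.29 ± 0.41, against 0.95, 0.67 and 0.99 without them. Nucb1 encodes a calcium-binding protein of the Golgi apparatus and Pja1 a ubiquitin ligase. Each of the 12 genes was also higher in PNx+NaKtide without PNx replicate 6 and without PNx replicates 1, 2 and 3.

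Muscle genes completed this set. Cnn1, which encodes calponin of contractile smooth muscle, had 0.404 to 8.91 CPM (median 3.49) in PNx and 3.33 to 50.7 CPM (median 17.3) in PNx+NaKtide, and PNx+NaKtide replicates 3 and 4 had 50.7 and 49.9 CPM. Its log2 fold change was 2.47 ± 0.69 (unadjusted p = 0.00125), the largest of the 12. Sh3bgr, a gene of striated muscle, had 1.01 to 4.75 CPM (median 2.89) and 3.87 to 25.3 CPM (median 12.1), also with PNx+NaKtide replicates 2, 3 and 4 highest, and a log2 fold change of 2.26 ± 0.65. In sham animals the gene stood at 1.80 ± 0.63 (unadjusted p = 0.00755) between NaKtide and Control, but at 0.43 ± 0.50 when NaKtide replicate 6 and PNx replicate 6 were left out. NaKtide replicate 6 had 78.9 CPM of Sh3bgr and at most 12.1 CPM was found in the other NaKtide libraries, and it held 7076 CPM of the skeletal muscle list against at most 136 CPM in the others.

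With opposite-strand overlap allowed, the smallest unadjusted p on the higher side belonged to Zfp213, a zinc finger gene (chromosome 17, 23556767 to 23564238) that shares exon bases with Gm26695. It had 0.986 to 7.27 CPM (median 5.81) in PNx and 13.6 to 31.6 CPM (median 21.1) in PNx+NaKtide without overlap of the groups, and a log2 fold change of 2.04 ± 0.48 (unadjusted p = 0.000223). Groups did not overlap either for Rnd2, a small GTPase gene opposite Vat1 (log2 fold change 1.58 ± 0.38), for Rab6a, a Golgi trafficking GTPase gene opposite Mrpl48 (1.15 ± 0.29), or for Teddm2 opposite Glul (1.76 ± 0.45). Teddm2 had 99.8 to 959.5 CPM (median 328) in PNx and 1276 to 1930.1 CPM (median 1531) in PNx+NaKtide. Glul encodes glutamine synthetase, and which of the 2 genes gave these reads cannot be told from the counts. Mgme1, a mitochondrial exonuclease gene opposite Snx5, had a log2 fold change of 1.64 ± 0.41. Without PNx replicates 1, 2 and 3, Rnd2 and Teddm2 were at 1.0 and 1.08. Overlap was common on the higher side. Of the 1064 higher genes 47.3% shared exon bases with an opposite-strand gene, and of the 93 genes with groups apart 74 (79.6%) did, against 31.1% of all genes tested. Only 25 of the 93 were protein-coding.

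**Figure D3:**
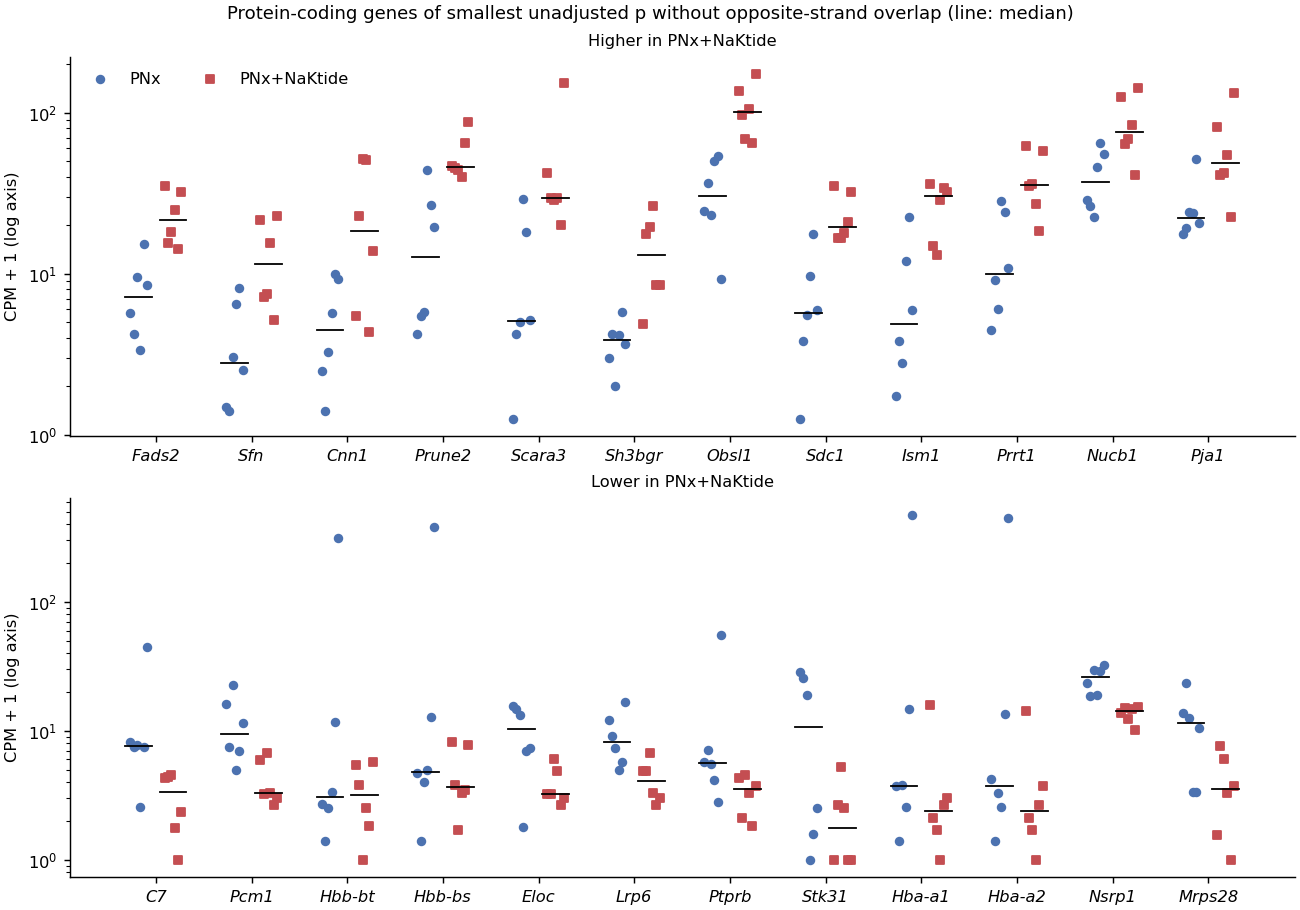
Levels of the 12 protein-coding genes of smallest unadjusted p in each direction, free of opposite-strand overlap, as CPM + 1 on log axes for PNx (circles) and PNx+NaKtide (squares), with the median as a line. Obsl1 and Nsrp1 are the genes whose groups do not overlap, and C7, Ptprb and the 4 haemoglobin genes each have 1 PNx library far above all others.

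Nsrp1, a splicing regulator gene (chromosome 11, 77044292 to 77078435), gave the most even difference on the lower side. It had 17.8 to 31.3 CPM (median 25.2) in PNx and 9.15 to 14.3 CPM (median 13.3) in PNx+NaKtide, so that the groups did not overlap. The log2 fold change was -0.95 ± 0.31 (unadjusted p = 0.00496), against -0.87 when PNx replicate 6 was left out and -1.04 when PNx replicates 1, 2 and 3 were. Tardbp, which encodes an RNA-binding protein of splicing and overlaps Masp2, was likewise lower in every PNx+NaKtide library, with 17.3 to 38.9 CPM (median 21.2) in PNx and 8.83 to 14.9 CPM (median 11.3) in PNx+NaKtide, a log2 fold change of -1.06 ± 0.32 (unadjusted p = 0.00286). Lrp6, a Wnt co-receptor gene, had 3.93 to 15.9 CPM (median 7.19) and 1.66 to 5.71 CPM (median 3.09), with a log2 fold change of -1.34 ± 0.42 that was -1.07 without PNx replicate 6.

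C7, a complement component gene expressed by stromal cells, had the smallest unadjusted p of these lower genes (0.00147). Its levels were 1.57 to 43.4 CPM (median 6.67) in PNx and 0 to 3.57 CPM (median 2.34) in PNx+NaKtide, and the log2 fold change of -2.47 ± 0.70 was -1.42 without PNx replicate 6. Pcm1, which encodes a scaffold of centriolar satellites, had 3.93 to 21.7 CPM (median 8.51) and 1.66 to 5.71 CPM (median 2.27), a log2 fold change of -1.74 ± 0.51 that was -1.11 without PNx replicates 1, 2 and 3. Eloc and Mrps28, genes of a ubiquitin ligase adaptor and of the mitochondrial ribosome, had log2 fold changes of -1.67 ± 0.50 and -1.80 ± 0.59, which were -0.67 and -0.73 without PNx replicates 1, 2 and 3. Each of these 3 genes had its highest PNx levels in replicates 1, 2 or 3.

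The remaining lower genes rested on 1 to 3 PNx libraries. Hba-a1, Hba-a2, Hbb-bs and Hbb-bt encode the globins of red blood cells, and their near-identical copies can share reads, so each is uncertain. PNx replicate 6 had 472 CPM of Hba-a1 and the other 5 PNx libraries had at most 13.7 CPM, against 0 to 14.9 CPM (median 1.39) in PNx+NaKtide. The log2 fold change of -4.51 ± 1.40 was -0.20 without that library, and the other 3 globin genes went from -4.51, -4.14 and -4.44 to -0.19, -0.24 and -0.35. Ptprb, a phosphatase gene of endothelium, had 54.7 CPM in PNx replicate 6 and at most 6.06 CPM in the rest, and its log2 fold change went from -2.40 ± 0.75 to -0.81. Stk31, a germ cell kinase gene, had 27.4, 24.6 and 17.9 CPM in PNx replicates 1, 2 and 3, while no other of the 12 libraries exceeded 4.29 CPM, and its log2 fold change of -3.23 ± 1.00 was 0.59 without those 3. Of the lower genes with opposite-strand overlap, Nav1 (-2.32 ± 0.64), Sash1 (-2.41 ± 0.67), Itga7 (-2.21 ± 0.67) and Ddhd1 (-1.60 ± 0.50) kept a negative value without PNx replicate 6 (-1.19, -1.44, -1.82 and -1.63), and Ddhd1 was at -0.75 without PNx replicates 1, 2 and 3.

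Gene lists are described by how many of their tested members had an unadjusted p under 0.05 and by the median log2 fold change, beside 4.07% higher, 8.60% lower and a median of -0.37 for all genes. In bulk tissue, fewer cells of a type and less RNA per cell cannot be told apart. The smooth muscle list was the one with most higher members in proportion, 4 of 10 higher and none lower, and all 10 had positive values, with a median of 0.75. It summed to 120.2 to 508 CPM (median 282) in PNx and 281 to 835 CPM (median 537) in PNx+NaKtide. PNx replicates 1, 2 and 3 were the lowest libraries and PNx+NaKtide replicates 2, 3 and 4 the highest, while PNx replicates 4, 5 and 6 were above PNx+NaKtide replicates 1, 5 and 6.

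Beside Cnn1, the higher members were Myh11, Lmod1 and Smtn. Myh11, the smooth muscle myosin heavy chain gene, had 8.88 to 134 CPM (median 46.4) in PNx and 25.8 to 380.0 CPM (median 180.2) in PNx+NaKtide, a log2 fold change of 1.68 ± 0.61 (unadjusted p = 0.0106). Lmod1, which encodes an actin nucleator, had 0.986 to 15.5 CPM (median 6.06) and 8.32 to 23.6 CPM (median 18.6), a log2 fold change of 1.38 ± 0.53. Smtn, the smoothelin gene, overlaps Gm11946 and had 1.50 ± 0.72. The list median was 1.72 without PNx replicate 6, with 6 of 10 higher, and 0.20 without PNx replicates 1, 2 and 3, with 1 of 10 higher. Myh11, Lmod1 and Smtn then stood at 0.83, 0.51 and 0.60, and without PNx replicate 6 Smtn was at 2.96.

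The epididymis list had the highest median, 0.87, with 12 of 15 members positive but only 1 higher and 1 lower at an unadjusted p under 0.05. Lcn12, a lipocalin gene of the epididymal duct, had 0.377 to 38.6 CPM (median 7.65) in PNx and 15.6 to 105 CPM (median 26.9) in PNx+NaKtide, a log2 fold change of 1.74 ± 0.81 (unadjusted p = 0.0407) that was 1.06 without PNx replicates 1, 2 and 3. Sult1e1, an oestrogen sulfotransferase gene that fat also expresses, had 16.2 CPM in PNx replicate 6 and at most 0.785 CPM in the other 11 libraries. The list sum varied over a wide range within PNx and within a narrow one in PNx+NaKtide, as the plot of list sums shows, and its median was 0.20 without PNx replicates 1, 2 and 3.

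Lists of mature fat, vessels and stroma were lower in PNx+NaKtide as fitted, and 1 PNx library stood far above the other 5 in their sums. Of 18 adipocyte markers, 7 were lower and none higher, with a median of -1.71. PNx replicate 6 held 7560.4 CPM of them, and the other 5 PNx libraries held 263 to 557 CPM. Without that library the median was 0.80 and 0 of 18 were lower. The group medians of the summed level were higher in PNx+NaKtide.

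Pparg, the master regulator of adipocyte differentiation, had 51.3 CPM in PNx replicate 6, at most 2.97 CPM in the other PNx libraries and 0 to 3.32 CPM (median 0.279) in PNx+NaKtide. Its log2 fold change was -3.49 ± 1.26 and -0.99 without that library. Slc2a4, the insulin-responsive glucose transporter gene, had 3.93 to 44.9 CPM (median 11.3) in PNx and 0.832 to 8.36 CPM (median 5.16) in PNx+NaKtide, and went from -1.64 ± 0.63 to -1.0. Aqp7, the glycerol channel gene, went from -1.70 ± 0.60 to -0.66. These 3 genes thus stayed below 0 as fitted without PNx replicate 6, unlike the list median.

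The lipid droplet and lipolysis list had 7 of 19 lower and a median of -1.48, which was 0.56 without PNx replicate 6. Pnpla2, which encodes the lipase that takes the first fatty acid from triglyceride, had 8.64 to 234 CPM (median 34.1) in PNx and 7.49 to 35.4 CPM (median 17.4) in PNx+NaKtide, a log2 fold change of -1.75 ± 0.67 that was -0.59 without PNx replicate 6. Abhd5, the gene of its activator, had -1.44 ± 0.57 and overlaps A730085K08Rik. Fitm2, a droplet assembly gene opposite 2310001K24Rik, had 54.3 CPM in PNx replicate 6 and at most 3.93 CPM in the other PNx libraries, and its log2 fold change went from -2.25 to -0.10 without it.

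Of 13 genes of fatty acid uptake, 3 were lower (median -0.71, 0.56 without PNx replicate 6). The fatty acid transporter gene Cd36 had 185 CPM in PNx replicate 6 and 0.808 to 3.56 CPM in the other 5 PNx libraries, and its log2 fold change changed sign from -3.14 to 0.95. Gpihbp1, which anchors lipoprotein lipase in capillaries, went from -2.71 to 0.87. Acsl1, an acyl-CoA synthetase gene opposite Gm45244, was at -1.02 ± 0.49 with PNx replicates 4 and 5 inside the PNx+NaKtide range, and at -0.63 without PNx replicates 1, 2 and 3.

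De novo lipogenesis had 1 member higher and 1 lower of 16, with a median of -0.93 that was 0.43 without PNx replicate 6. Acly, which makes cytosolic acetyl-CoA, was the higher one, with 10.9 to 84.9 CPM (median 30.9) in PNx and 39.9 to 159 CPM (median 52.8) in PNx+NaKtide and a log2 fold change of 1.14 ± 0.47 (unadjusted p = 0.0223). PNx replicates 1, 2 and 3 were its lowest libraries, and the value was 0.47 without them. Me1, the malic enzyme gene, was the lower one, at -2.46 ± 0.83 (unadjusted p = 0.00619) and at -1.59 without PNx replicate 6, and overlaps A330041J22Rik.

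Among 15 adipokine genes tested 4 were lower (median -1.09, 0.34 without PNx replicate 6). Lep, the leptin gene, had 128 CPM in PNx replicate 6 and at most 5.94 CPM in the other PNx libraries, against 0.714 to 7.75 CPM (median 1.25) in PNx+NaKtide, and its log2 fold change changed sign from -2.92 to 0.50 without that library. Nampt, an NAD synthesis enzyme gene, was at -1.06 ± 0.51 and at -0.66 without it. Adipogenic transcription factors had 2 of 14 lower, Pparg and Klf4 (-1.86 ± 0.69, -0.78 without PNx replicates 1, 2 and 3). The insulin list had 5 of 16 lower, and its median of -0.59 was 0.15 without PNx replicate 6. In the insulin list Pdpk1, a kinase gene upstream of Akt, had 4.44 to 14.9 CPM (median 8.58) in PNx and 2.30 to 7.14 CPM (median 4.17) in PNx+NaKtide, with a log2 fold change of -1.09 ± 0.42 that hardly moved without PNx replicate 6 (-0.99) or without PNx replicates 1, 2 and 3 (-0.98). Igf1 went from -2.01 to 0.27 without PNx replicate 6. None of the 11 thermogenic genes tested reached an unadjusted p under 0.05.

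The endothelium list had the largest share of lower members, 10 of 13, and a median of -2.40. PNx replicate 6 held 796 CPM of these genes, the other 5 PNx libraries 39.4 to 81.7 CPM, and PNx+NaKtide 50.7 to 87.6 CPM (median 66.2). Without PNx replicate 6 the median was 0.42, with 1 member higher and 1 lower. Kdr and Esam, genes of a growth factor receptor and of a junction protein of the vessel wall, went from -3.38 and -3.02 to 0.06 and 0.32.

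Tek, the angiopoietin receptor gene, was an exception. It had 2.38 to 19.6 CPM (median 7.24) in PNx and 0.679 to 4.46 CPM (median 2.75) in PNx+NaKtide, and its log2 fold change of -1.61 ± 0.53 (unadjusted p = 0.00535) was -1.19 without PNx replicate 6 and -1.73 without PNx replicates 1, 2 and 3. In sham animals it was also lower with NaKtide, at -1.48 ± 0.56 (unadjusted p = 0.0136). Sox18, a transcription factor gene of vessels, was at -2.65 ± 0.95 and at -1.79 without PNx replicate 6.

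Collagen and matrix genes had 10 of 29 lower and none higher, with a median of -1.65 that was 0.22 without PNx replicate 6. The library held 2158 CPM of the list, and PNx replicates 1, 2 and 3, at 98.3, 86.4 and 122 CPM, were below 5 of the 6 PNx+NaKtide libraries. Timp2, an inhibitor of matrix proteases, went from -1.77 to -0.55, Loxl1, a crosslinking enzyme gene, from -2.52 to -0.85, and Col5a1 from -2.03 to -0.51. Timp3 changed sign, from -1.89 to 0.22.

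Fibroblast progenitor markers had 7 of 12 lower (median -1.71, -0.19 without PNx replicate 6). Cd34, a surface marker of progenitors, had 4.71 to 61.0 CPM (median 37.4) in PNx and 3.32 to 17.8 CPM (median 10.2) in PNx+NaKtide, a log2 fold change of -1.66 ± 0.57 (unadjusted p = 0.00742), with PNx replicates 4 and 5 inside the PNx+NaKtide range. Its value stayed at -1.65 without PNx replicate 6 and was -0.54 without PNx replicates 1, 2 and 3. Dcn, the decorin gene, changed sign from -2.35 to 0.70 without PNx replicate 6. The erythrocyte list, with 6 of 9 lower and a median of -3.75, held 1643 CPM in that library and at most 66.5 CPM in the other 5, and its median was -0.35 without it.

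**Figure D4:**
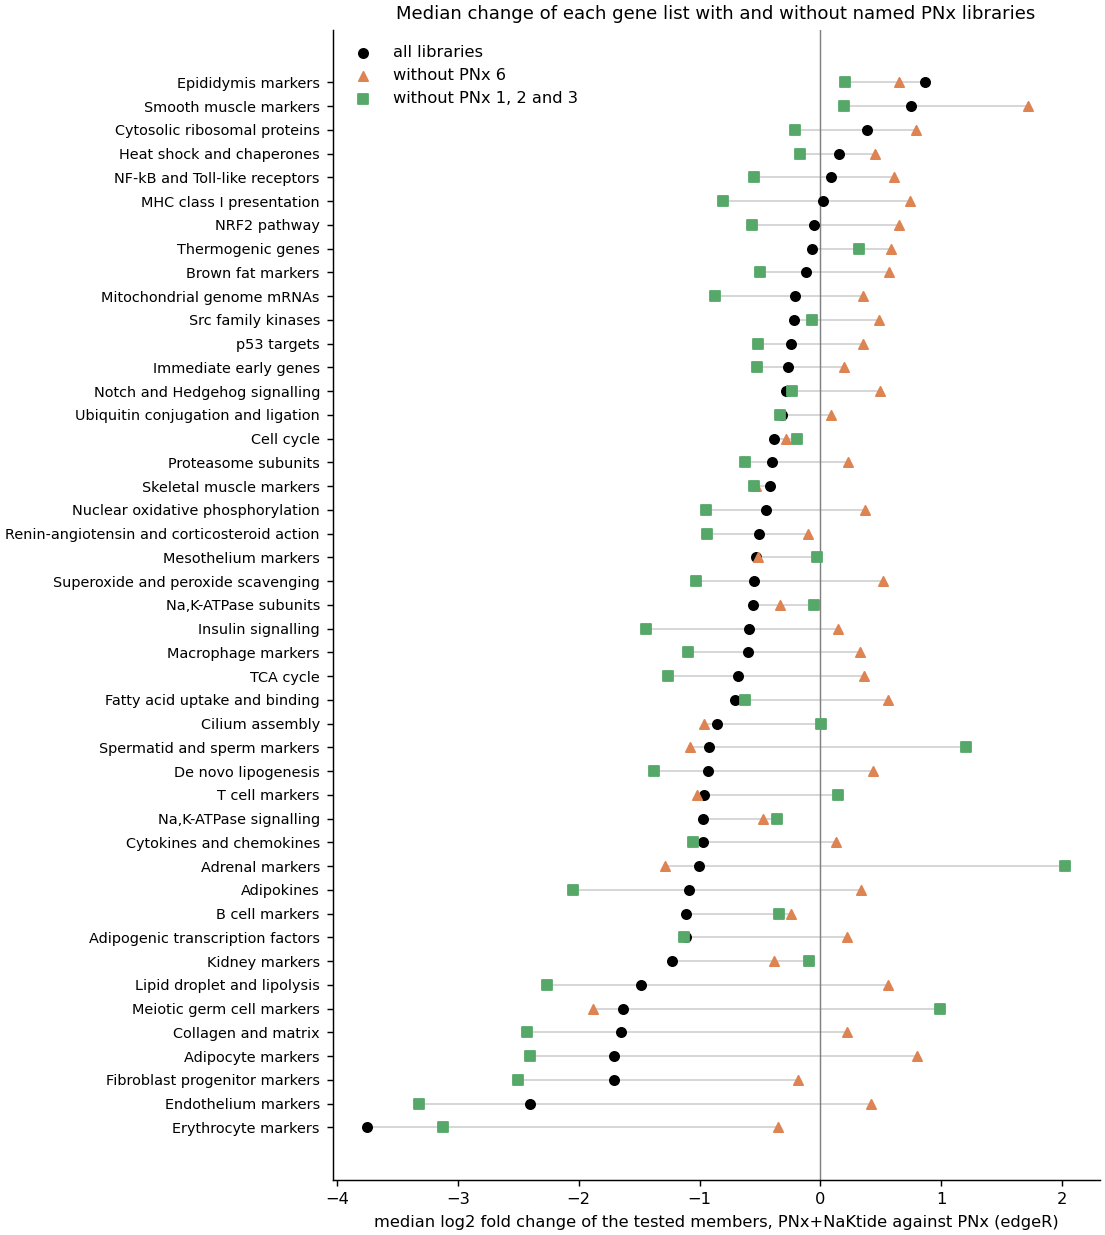
Median log2 fold change of the tested members of 45 gene lists between PNx+NaKtide and PNx in edgeR, with all libraries (circles), without PNx replicate 6 (triangles) and without PNx replicates 1, 2 and 3 (squares). Fat, vessel and matrix lists move to positive medians or towards 0 without PNx replicate 6, and germ cell and adrenal lists turn positive without PNx replicates 1, 2 and 3.

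A different set of lists rested on PNx replicates 1, 2 and 3. Genes of cilium assembly had 7 of 32 lower and none higher, 30 of 32 negative values and a median of -0.85. These libraries held 578, 441 and 595 CPM of the list, PNx replicates 4, 5 and 6 held 204 to 230.1 CPM, and PNx+NaKtide 151 to 340.0 CPM (median 224). Without them the median was 0.01, with 1 gene higher and none lower, while it was -0.96 without PNx replicate 6. Bbs5, a subunit of the complex that carries cargo into cilia, had 0.594 to 6.31 CPM (median 3.29) in PNx and 0 to 1.67 CPM (median 0.277) in PNx+NaKtide, a log2 fold change of -2.58 ± 0.86 (unadjusted p = 0.00591) that was -1.75 without those libraries. Ift74, Ift81 and Cep290, genes of transport along the cilium and of its base, went from -2.09, -1.45 and -0.91 to 0.85, 0.12 and 0.04.

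The medians of germ cell lists turned positive without the same libraries. Meiotic markers had 2 of 14 lower and a median of -1.63, which was 0.99 without PNx replicates 1, 2 and 3, and sperm markers had 2 of 14 lower and went from -0.92 to 1.2. Sperm markers summed to 1973, 1716 and 2381 CPM in these PNx libraries and to 1234, 1563 and 1571 CPM in PNx+NaKtide replicates 2, 3 and 4, and the other 6 libraries held at most 661 CPM. Meiotic markers summed to 308, 254 and 292 CPM in PNx replicates 1, 2 and 3, but the highest sum, 429 CPM, was that of PNx replicate 6, and PNx+NaKtide held 70.7 to 159.7 CPM. Ddx4, a germ line helicase gene, had 20.9, 6.46 and 28.8 CPM in PNx replicates 1, 2 and 3, while no other of the 12 libraries was above 5.02 CPM. The part of germ cell RNA in the ciliary genes was not tested.

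The summed level of adrenal markers had a median of 151 CPM (61.9 to 198) in PNx and 177 CPM (84.7 to 216) in PNx+NaKtide. With 171 CPM, PNx replicate 4 was above PNx replicates 1 and 3 (163 and 139 CPM). The sum was thus not lower in PNx+NaKtide by its median, unlike the fitted values. Of 10 adrenal markers 2 were lower, and their median log2 fold change was -1.01, against 2.02 without PNx replicates 1, 2 and 3. Cyp11b2, the aldosterone synthase gene, had 13.8, 10.1 and 7.32 CPM in those libraries and at most 4.29 CPM in the other 9. Of 9 B cell markers 3 were lower, among them Ms4a1, the CD20 gene, which had 12.3, 9.29 and 4.04 CPM in PNx replicates 1, 2 and 3 and 0 counts in PNx replicates 4, 5 and 6. Dll1, a Notch ligand gene opposite A930024N18Rik and the 1 lower gene of 26 in the Notch and Hedgehog list, was highest in the same 3 libraries, at 28.6, 38.8 and 24.2 CPM, and its log2 fold change went from -1.50 ± 0.62 to 0.23 without them.

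Genes of energy metabolism showed few members past the unadjusted threshold. Of 53 nuclear genes of oxidative phosphorylation, 1 was higher and 2 lower, with a median of -0.45 that was 0.37 without PNx replicate 6. Cox6c, a cytochrome oxidase subunit gene opposite Vps13b, had 55.5 to 98.5 CPM (median 78.8) in PNx and 90.3 to 168 CPM (median 114) in PNx+NaKtide, a log2 fold change of 0.59 ± 0.28, and Cox5a, opposite Gm26631, and Uqcrfs1 had -1.10 ± 0.47 and -1.65 ± 0.68, against -0.60 and -0.30 without PNx replicate 6. Of 26 genes of the citric acid cycle 2 were lower, Dld (-1.33 ± 0.62) and Idh1 (-2.05 ± 0.94, but 0.10 without PNx replicate 6). None of the 13 mitochondrial genome mRNAs was past the threshold.

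Cytosolic ribosomal protein genes had positive values in 38 of 42 cases and a median of 0.39, with none past the threshold. Their sum was 768 to 4999 CPM (median 1968) in PNx and 1858 to 5854 CPM (median 2848) in PNx+NaKtide. Without PNx replicate 6 the median was 0.79 and 14 of 42 were higher, and without PNx replicates 1, 2 and 3 it was -0.21. The heat shock list had 2 of 24 higher. Hspa1b, an inducible chaperone gene whose near-identical copy can share reads, had 12.1 to 44.5 CPM (median 30.7) in PNx and 33.3 to 93.7 CPM (median 53.3) in PNx+NaKtide, a log2 fold change of 0.91 ± 0.38 (unadjusted p = 0.0251) that was 0.74 and 1.02 without the libraries named above. Hsp90ab1, a constitutive chaperone gene, was at 0.90 ± 0.37, and at 1.27 and 0.25 without them.

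None of 31 proteasome subunits was past the threshold (median -0.40, 0.23 without PNx replicate 6). Of 44 genes of ubiquitin conjugation and ligation, 2 were higher and 5 lower. The higher ones, Btrc opposite Gm6807 (1.19 ± 0.47) and Stub1 opposite Jmjd8 (0.88 ± 0.38), encode a substrate receptor and a ligase of misfolded proteins, and were at 0.49 and 0.17 without PNx replicates 1, 2 and 3. Ube2n and Ube2g2, conjugating enzyme genes, were at -1.41 ± 0.55 and -1.72 ± 0.66. Ube2n was at -0.41 without PNx replicates 1, 2 and 3, and Ube2g2 at -0.89 without PNx replicate 6.

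Genes of inflammation went both ways. In the NF-kB and Toll-like receptor list 2 of 21 were higher and 2 lower, with a median of 0.09 that was -0.09 with size factors and -0.08 with total counts, 0.61 without PNx replicate 6 and -0.55 without PNx replicates 1, 2 and 3. Myd88, the adaptor of Toll-like receptors, was higher in every PNx+NaKtide library, with 4.44 to 22.0 CPM (median 12.2) in PNx and 25.0 to 42.1 CPM (median 30.4) in PNx+NaKtide and a log2 fold change of 1.29 ± 0.41 (unadjusted p = 0.00379). It shares exon bases with Acaa1a. Ikbkg, the regulatory subunit of the kinase that frees NF-kB, overlaps G6pdx and had 9.36 to 162 CPM (median 46.7) in PNx and 147 to 234 CPM (median 176) in PNx+NaKtide, a log2 fold change of 1.53 ± 0.49 (unadjusted p = 0.00422). Without PNx replicates 1, 2 and 3, Myd88 was at 0.62 and Ikbkg at 0.73.

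Of 15 cytokine and chemokine genes tested, 1 was higher and 2 lower. The higher one was Il10, an anti-inflammatory cytokine gene, at 0 to 1.57 CPM (median 0.202) in PNx and 0 to 3.33 CPM (median 1.99) in PNx+NaKtide, which is near the limit of a count of 0. Cxcl12 had 57.0 CPM in PNx replicate 6 and changed sign without it, from -2.90 to 0.18. Cxcl9 had 20.4 CPM in the same library, was at or under the limit of a count of 0 in the other 11 and is given no fold. Macrophage markers had 2 of 14 lower, among them Mrc1 (-2.02 ± 0.96). When PNx replicate 6 was left out, Mrc1 was at -1.13 and the median of the list went from -0.60 to 0.33. None of 7 T cell markers tested was past the threshold, and of 17 genes of MHC class I presentation 1 was higher, Calr (0.86 ± 0.41, 0.25 without PNx replicates 1, 2 and 3).

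Genes of the oxidant response, which bears on the signalling that NaKtide was designed to block, had few members past the threshold. None of 23 NRF2 pathway genes tested was past the threshold, with a median of -0.05 that was 0.65 without PNx replicate 6. Of 19 scavenging enzyme genes 2 were lower, and the median of -0.55 was 0.52 without that library. Prdx4, a peroxiredoxin gene of the endoplasmic reticulum, had 4.04 to 11.8 CPM (median 9.01) in PNx and 3.32 to 5.43 CPM (median 4.09) in PNx+NaKtide, a log2 fold change of -1.0 ± 0.47 (unadjusted p = 0.0432) that was -1.01 without PNx replicate 6 and -1.24 without PNx replicates 1, 2 and 3. In sham animals Prdx4 was also lower with NaKtide, at -1.20 ± 0.47 (unadjusted p = 0.0169). Sod3, the extracellular superoxide dismutase gene, had 70.2 CPM in PNx replicate 6 and changed sign without it, from -2.12 to 0.70.

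Stress and growth lists held a few members each. Immediate early genes had 2 of 18 higher, Jund, opposite Gm11175 (0.98 ± 0.34), and Nr4a1 (1.51 ± 0.64), and 2 lower, Klf4 and Klf2 (-2.06 ± 0.77). Klf2 was at -0.72 without PNx replicate 6, and Jund and Nr4a1 were at 0.46 and 0.80 without PNx replicates 1, 2 and 3. Nr4a1, a nuclear receptor gene induced by handling, had 0.739 to 34.5 CPM (median 7.49) in PNx and 24.3 to 69.2 CPM (median 31.3) in PNx+NaKtide. Of 21 p53 targets 1 was higher, Perp (1.67 ± 0.79, 0.82 without PNx replicates 1, 2 and 3). Cell cycle genes had 1 of 41 higher and 4 lower. The higher one was Cdc25a, a phosphatase gene that opens S phase, with 1.78 to 9.08 CPM (median 3.29) in PNx and 1.11 to 39.0 CPM (median 18.7) in PNx+NaKtide, a log2 fold change of 1.91 ± 0.61 (unadjusted p = 0.00390), and its 3 highest libraries were PNx+NaKtide replicates 2, 3 and 4 at 39.0, 32.1 and 30.7 CPM. Cdkn2c, a cell cycle inhibitor gene, was among the lower ones at -1.15 ± 0.55, and at -0.28 without PNx replicate 6.

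Of 14 genes of renin-angiotensin and corticosteroid action tested, 2 were lower. Agt, the angiotensinogen gene, had 5.25 to 117 CPM (median 11.5) in PNx and 1.66 to 17.2 CPM (median 5.28) in PNx+NaKtide, a log2 fold change of -2.05 ± 0.76 that was -0.57 without PNx replicate 6. Hsd11b1, which regenerates active glucocorticoid, had 30.6 CPM in PNx replicate 6 and at most 0.785 CPM in the other PNx libraries.

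Mesothelium markers had 1 of 9 higher and 2 lower, with 6 of 9 negative values and a median of -0.53. The higher one was Krt19, a keratin gene of mesothelium and of ductal epithelia, at 3.20 to 48.7 CPM (median 9.70) in PNx and 16.6 to 95.7 CPM (median 33.0) in PNx+NaKtide (1.31 ± 0.55, 0.57 without PNx replicates 1, 2 and 3). Bnc1 was among the lower ones, with a log2 fold change of -3.21 to -1.87 as single libraries were left out. Kidney markers summed to 856 to 4790.4 CPM (median 1971) in PNx and 2958 to 7557 CPM (median 3389) in PNx+NaKtide, of which Nphs1, the podocyte nephrin gene, gave 459 to 4129 CPM (median 1528) and 2519 to 7103 CPM (median 2955). Nphs1 shares exon bases with Nphs1os, and its log2 fold change of 1.02 ± 0.43 was 0.31 without PNx replicates 1, 2 and 3. None of 14 skeletal muscle and none of 6 brown fat markers tested was past the threshold.

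The same viruses were compared in sham-operated animals. NaKtide against Control gave 0 genes at an adjusted p under 0.1 in edgeR (0%) and 1031 (3.95%) at an unadjusted p under 0.05, 532 higher (2.04%) and 499 lower (1.91%), and DESeq2 called 3 genes. In that comparison the 93 genes higher in every PNx+NaKtide library had a median log2 fold change of -0.32, against 0 for all genes tested. Of the 93, 21 (22.6%) had the same sign in both comparisons, against 45.6% of all genes tested. The adipocyte list had no member past the unadjusted threshold in sham animals, and the endothelium list had a median of 0.74, with 1 member higher and 1 lower. NaKtide replicate 6 held 6239 CPM of the adipocyte list, against at most 884 CPM in the other 5 NaKtide libraries, and 546 CPM of the endothelium list, against 53.6 to 140 CPM in them. When it and PNx replicate 6 were left out, the sham median went from 1.2 to -0.16 for the adipocyte list and was 0.00 for the endothelium list. Without both that library and PNx replicate 6, the adipocyte list after nephrectomy had a median of 0.80, with 5 of 18 higher and none lower.

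The difference between the 2 effects was tested as an interaction of NaKtide with nephrectomy. No gene had an adjusted p under 0.1 (0%, smallest adjusted p 0.377, edgeR), and 2421 genes (9.27%) had an unadjusted p under 0.05, with 94 calls by DESeq2. Without PNx replicate 4, edgeR called 1 gene. On the side of a more positive fold change after nephrectomy than in sham animals, H2-T24, a non-classical MHC gene, had 1.78 to 7.07 CPM (median 3.08) in PNx and 4.75 to 14.5 CPM (median 9.42) in PNx+NaKtide. Its log2 fold change was 1.30 ± 0.52 after nephrectomy and, with the opposite sign, -1.82 ± 0.52 in sham animals, an interaction of 3.11 ± 0.73 (unadjusted p = 0.000225). Scara3 had 2.42 ± 0.69 and -1.12 ± 0.66, an interaction of 3.54 ± 0.95 (unadjusted p = 0.000885), and Dbndd1 1.17 ± 0.45 and -1.02 ± 0.44, an interaction of 2.19 ± 0.63. On the other side were Dpt, a matrix gene of fibroblasts (-4.14 ± 1.21), Cmklr1, the chemerin receptor gene (-3.87 ± 1.05), and Dera, a deoxyribose phosphate aldolase gene (-3.64 ± 1.07), whose value after nephrectomy went from -0.88 ± 0.73 to 0.13 without PNx replicates 1, 2 and 3. NaKtide replicate 6 was the highest library of all 3 genes within its group, with 68.5, 32.3 and 65.9 CPM, and the other 5 NaKtide libraries had at most 5.91, 13.8 and 29.5 CPM. Cmklr1 had 0.785 to 24.9 CPM (median 9.62) in PNx and 0 to 4.43 CPM (median 2.58) in PNx+NaKtide, a log2 fold change of -1.98 ± 0.74 after nephrectomy against 1.90 ± 0.75 in sham animals. The highest of these PNx levels was that of replicate 6. Dpt had 77.0 CPM in PNx replicate 6 and at most 7.67 CPM in the other PNx libraries. Without PNx replicate 6 and NaKtide replicate 6, the interaction was -0.47 ± 0.66 for Dpt, -2.39 ± 0.94 for Cmklr1 and -2.5 ± 0.98 for Dera, and the sham value of Cmklr1 was 0.93 ± 0.68. In the same fit H2-T24 and Scara3 had interactions of 3.14 ± 0.76 and 3.16 ± 0.93.

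PNx+NaKtide libraries were more alike than PNx libraries. Each library was compared, gene by gene, with the median of the remaining 5 of its group, and the size of the log2 CPM difference of the median gene was 0.55 ± 0.049 (SD, n = 6) in PNx+NaKtide and 0.84 ± 0.17 (SD, n = 6) in PNx. The difference of -0.29 had p = 0.00216 in a two-sided permutation of these distances between the groups, the smallest p that 6 against 6 can give. The distances were computed within each group before they were permuted. Those of a group depend on each other, so this p overstates the evidence and is only a rough guide. Even so, the p was above 0.05 without PNx replicate 4 (permutation p = 0.0779) and without PNx replicate 5 (permutation p = 0.145). The biological coefficient of variation fitted in each group alone was 59.6% in PNx+NaKtide and 99.1% in PNx. In sham animals the order was the reverse, with 67.6% in NaKtide and 38.0% in Control.

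Leaving out single libraries moved the number of genes at an unadjusted p under 0.05 between 2178 (without PNx replicate 3) and 5595 (without PNx replicate 4). Leaving out PNx replicate 1 gave 2209, PNx replicate 5 gave 5201 and PNx replicate 6 gave 4439, and 2498 of the last were also among the 3309. Without PNx replicates 1, 2 and 3 together it was 3811, 1826 higher and 1985 lower, but only 813 of these were among the 3309, and the median over all genes was 0.00. In none of these fits did any gene have an adjusted p under 0.1 in edgeR, and the smallest adjusted p was 0.106, without PNx replicates 1, 2 and 3.

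**Figure D5:**
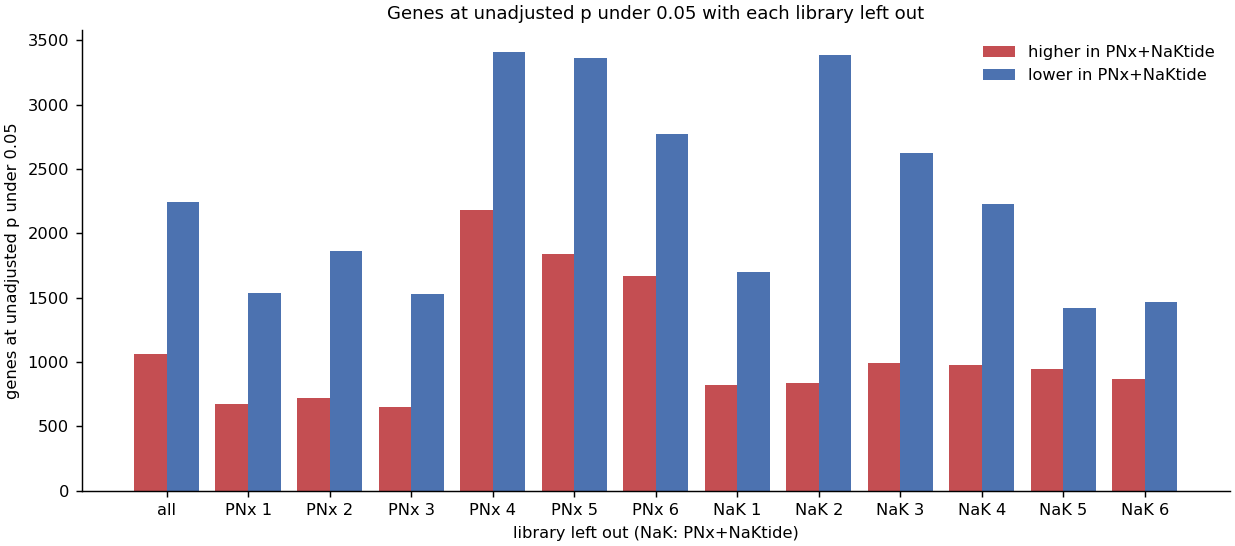
Number of genes at an unadjusted p under 0.05 between PNx+NaKtide and PNx, higher and lower, with all libraries and with each of the 12 libraries left out in turn. The count is largest without PNx replicate 4 (2186 higher, 3409 lower) and smallest without PNx replicate 3 (650 higher, 1528 lower), and lower genes outnumber higher ones in every case.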

How the data were processed

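Visceral adipose RNA of 24 mice, 6 in each of 4 groups, was sequenced by the authors as poly(A)-selected, stranded libraries with paired reads of 50 bp. The authors trimmed reads with Trimmomatic 0.38, aligned them with HISAT2 2.1.0 and counted them with GenomicAlignments 1.16.0 (submitters' processing notes and methods), and DESeq2 1.20.0 is also named. The deposited table holds raw read counts per gene, and a second deposited table holds FPKM values, used here only in alternatives. The annotation release and the strand setting of the counting are not given in the sources used here.

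Samples were grouped by their labels. Genes with more than 10 counts over the 24 libraries were fitted as 4 group means with edgeR 4.0.16 (R 4.3.3, TMM scaling, quasi-likelihood F-test, Benjamini-Hochberg adjustment, adjusted p under 0.1), with 3 contrasts. The SE of a log2 fold change was obtained from the fold change and the F statistic. CPM values used TMM-scaled library sizes. Opposite-strand overlap of exons and coordinates came from GENCODE M21 (GRCm38, GenomicRanges 1.54.1), to which 54165 of 54232 identifiers matched. Alternatives used DESeq2 1.42.0, limma 3.58.1 (voom, or log2 FPKM with a pseudocount of 1 or 0.1), other scalings, filters, gene sets and left-out libraries. Named genes with at most 3 counts in at least 11 of the 12 libraries were given no fold. A list sum is the total CPM of its members, and a list median that of their log2 fold changes. The distances of libraries, computed within each group, were compared by permuting them between the groups. The fit was tested on simulated data.

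The genes named were those the transgene concerns and the signalling list, the 12 protein-coding genes of smallest unadjusted p in each direction without opposite-strand overlap and with a mean of at least 5 CPM, the 5 with overlap, the leading genes of the interaction, and members of 29 process lists and 16 marker lists with an unadjusted p under 0.05. Members, lists and rules were chosen with earlier results of these data known. Some genes are not reported here. P-values measure the spread between mice, which the main fit estimated over the 4 groups together.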

Additional observations from a re-analysis of the deposited data

Results flagged for a closer look

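Single libraries were compared with the other 5 of their group for 127 genes and 45 list sums, in 344 groups in all, and 47 times a library stood apart, with a gap to its nearest neighbour that was above Dixon's critical value for 6 samples as a share of the range of the group on the log2(CPM + 1) scale. About 1 in 20 groups of independent, normally distributed values would be flagged. Most of these genes were named for a small p in the same libraries, and lists share members, so that rate is no benchmark here. PNx replicate 6 was the library far above the others in 21 genes and 10 lists. Its genes of fat and of the citric acid cycle were Aqp7 (61.1 CPM), Pparg (51.3 CPM), Cd36 (185 CPM), Fitm2 (54.3 CPM) and Idh1 (46.0 CPM). The vessel, stromal, chemokine and other genes were Nav1 (36.6 CPM), Sash1 (32.5 CPM), Ptprb (54.7 CPM), Esam (46.0 CPM), Kdr (70.2 CPM), Klf2 (19.2 CPM), Sod3 (70.2 CPM), Dpt (77.0 CPM), Dcn (113 CPM), Mfap5 (7.55 CPM), Cxcl12 (57.0 CPM) and Cxcl9 (20.4 CPM). The hormone and steroid genes were Agt (117 CPM), Igf1 (59.6 CPM), Hsd11b1 (30.6 CPM) and Sult1e1 (16.2 CPM).

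The list sums far above the others in PNx replicate 6 were those of adipocyte markers (7560.4 CPM), lipid droplet and lipolysis (4535 CPM), nuclear oxidative phosphorylation (2838 CPM), fatty acid uptake (2337 CPM), the citric acid cycle (1687 CPM), erythrocyte markers (1643 CPM), proteasome subunits (1116 CPM), endothelium markers (796 CPM), adipogenic transcription factors (526 CPM) and insulin signalling (488 CPM). PNx replicate 6 was low for Creb1 (4.15 CPM). In other PNx libraries, Zfp213 was low in replicate 1 (0.986 CPM), Eloc was low in replicate 4 (0.785 CPM) and Pja1 was high in replicate 5 (50.5 CPM).

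In PNx+NaKtide, replicate 5 was high for the sums of the cell cycle list (2654 CPM) and of macrophage markers (599.7 CPM) and low for fibroblast progenitor markers (32.4 CPM) and for the renin-angiotensin list (86.5 CPM). The same library was low for Me1 (0.832 CPM), Slc2a4 (0.832 CPM) and Cdkn1a (0 CPM). Replicate 6 was high for Scara3 (151 CPM) and low for the cytokine list (42.8 CPM), and replicate 3 was high for Sod3 (5.72 CPM). Replicate 1 was low for Creb1 (2.21 CPM) and was flagged high for Sult1e1, but at 0.554 CPM, under the limit of a count of 0.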

How the results depend on the processing

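The absence of calls between PNx+NaKtide and PNx in edgeR held under other scalings, filters, gene sets and left-out libraries, whereas other tests gave calls: 1514 by DESeq2, 11479 by voom with sample weights and 4 by limma on FPKM with either pseudocount. For NaKtide against Control these tests called 3, 2, and 1 or 2 genes, and for the interaction DESeq2 called 94 and voom 6662. The cause was not tested. Genes at an unadjusted p under 0.05 numbered 6563 with size factors, 2118 with the filterByExpr filter, 5645 by DESeq2, 11979 by voom, 5051 by limma on log2(FPKM + 1), 2097 among protein-coding genes (fewer genes tested) and 5106 without PNx replicate 6 and NaKtide replicate 6, and 2178 to 5595 with single libraries left out. The median over all genes, as a log2 fold change, was -0.71 with size factors, -0.72 by DESeq2, 0.043 by voom and 0.00 without PNx replicates 1, 2 and 3. Leaving out single libraries gave 0 to 1 interaction calls and a difference in distance of -0.35 to -0.23.

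Replicate numbers are shared between groups, but the deviations of same-numbered libraries correlated at -0.59, 0.71, 0.63, -0.53, 0.58 and 0.47, so the numbers do not pair the libraries, and 2 of 6 libraries correlated best with their own number. With the replicate block 0 genes were called and 2919 had an unadjusted p under 0.05 (1700 higher, 1219 lower, so that higher genes were in excess), the interaction had 2 calls, and Creb1 stood at 0.027.

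Log2 fold changes that changed sign were as follows. Without PNx replicate 6 they were Esam 0.32, Cd36 0.95, Dcn 0.70, Timp3 0.22, Igf1 0.27, Gpihbp1 0.87, Idh1 0.10, Lep 0.50, Cxcl12 0.18, Kdr 0.055 and Sod3 0.70, and over all single libraries left out the lowest values of these genes were -3.33, -4.22, -2.75, -2.14, -2.23, -2.98, -2.48, -3.47, -3.41, -3.86 and -2.39. With NaKtide replicate 6 also left out they were 0.35, 0.95, 0.71, 0.23, 0.27, 0.89, 0.11, 0.52, 0.19, 0.070 and 0.69, in the same order of genes. Without PNx replicates 1, 2 and 3 they were Cabs1 0.58, Dll1 0.23, Cep290 0.038, Ddx4 1.18, Cyp11b2 1.29, Stk31 0.59, Ms4a1 3.41, Creb1 0.046, Ift74 0.85, Nos3 1.34, Ift81 0.12, Dera 0.13, Pgk2 0.33, Ccnb1 2.35 and Cdc25c 1.17. By voom they were Esam 1.60, Cd36 0.29, Dcn 0.91, Timp3 0.71, Gpihbp1 2.48, Hbb-bs 0.032, Lep 1.09, Cxcl12 0.37, Kdr 0.70 and Sod3 0.66, and by limma on log2(FPKM + 0.1) Gpihbp1 0.40. With single libraries left out, Creb1 ranged from -0.12 (PNx+NaKtide replicate 2) to 0.16 (PNx+NaKtide replicate 1).

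The median standard error of a log2 fold change was 0.74. A difference must be well above its standard error to pass the thresholds used here. At this depth and spread, differences of that size or less could therefore mostly not be detected, and the limit lay above it. The counts of replicates differed by more than sampling noise (lowest chi-square per degree of freedom 1.93). PNx+NaKtide replicates 2, 3 and 4 were close to each other, at 1.93 to 2.60. All remaining PNx+NaKtide pairs were at 14.3 or more, and all PNx pairs at 5.62 or more.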
